A study of Mus musculus with 12 samples.

Results

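Livers of mice with a macrophage-specific knockout of thrombospondin 1 (TSP1) were compared between a high-fat (HF) and a low-fat (LF) diet, using the 3 libraries labelled HF knockout and the 3 labelled LF knockout out of the 12 RNA-seq libraries of the study. All 16239 genes with a gene number in the files were considered, and 12587 of them passed the filter on low counts and were tested. HF knockout mice carried the macrophage-specific TSP1 knockout and ate the HF diet for 8 months, and LF knockout mice carried the same knockout and ate the LF diet for 8 months. The other 6 libraries came from TSP1 floxed mice, whose genotype is labelled WT. Of these, 3 were on the HF diet (HF floxed) and 3 on the LF diet (LF floxed). They enter here through the filter, the scaling between libraries, the shared estimate of spread and the test of the genotype. Floxed values and diet differences are also given beside the knockout ones, and only the interaction test compares the genotypes. All mice were of strain 129/B6 and 10 months old, and total RNA was taken from flash-frozen whole liver. The labels do not name the Cre line, the sex of the mice or the composition of the diets, and they number the replicates without saying that each is a separate animal. The p-values therefore cover the differences seen among these libraries, a part of which may be technical.

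TSP1 is a secreted matrix glycoprotein of platelets, macrophages and other cells; it binds the receptors CD36 and CD47 and can activate latent TGF-β. Long HF feeding loads hepatocytes with triglyceride, and in steatohepatitis monocyte-derived macrophages join the resident Kupffer cells, the macrophages of the liver sinusoid. Hepatocytes answer inflammatory cytokines with the acute phase response, in which secreted plasma proteins such as serum amyloid A and haptoglobin are made in larger amounts.

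Libraries held 16131506 to 16536016 estimated counts, so depth hardly differed between them, but the 6 knockout libraries were uneven in other ways. The biological coefficient of variation, the typical spread of a gene between replicates beyond counting error, was 52.9% among HF knockout libraries and 23.3% among LF knockout libraries. HF knockout replicate 2 stood apart: its rank correlation with each of the other 11 libraries was 0.879 to 0.917, its 10 most abundant genes took 34.1% of the counts of named genes, and loci without a gene name took 6.65%. LF knockout replicates 2 and 3 were nearly alike, with a chi-square per degree of freedom of 2.85 against 99.31 to 527.77 for the other pairs within the knockout groups. They differed by more than sampling noise and were kept as separate replicates. The labels do not say whether they came from separate animals.

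Some genes that followed the diet label in floxed livers did not follow it in knockout livers; Cidea and Cyp2b9 were picked after their values were seen. Cidea, a lipid droplet protein of fat-laden hepatocytes, had 0.00, 7.89 and 2.32 FPKM (read fragments scaled to transcript length and library size) in HF knockout livers, against 0.61, 47.22 and 52.43 FPKM in LF knockout livers. In floxed livers it had 68.17, 60.63 and 27.37 FPKM on HF and 0.00, 0.11 and 0.11 FPKM on LF. Cidea was thus high in all 3 HF floxed livers and in LF knockout replicates 2 and 3, and low in HF knockout replicate 1. Cyp2b9, a cytochrome P450 that is female-biased in mouse liver, had 45.66, 115.79 and 71.18 FPKM in HF knockout livers, against 8.47, 96.87 and 94.50 FPKM in LF knockout livers. It had 44.31, 46.19 and 36 FPKM in HF floxed livers, against 0.71, 0.43 and 0.35 FPKM in LF floxed livers, so LF knockout replicates 2 and 3 lay above all 3 HF floxed livers and LF knockout replicate 1 lay between the floxed groups. Rank correlations over all 12587 tested genes were mixed too. LF knockout replicates 2 and 3 correlated at 0.984 and 0.983 with HF floxed replicate 3, against 0.973 and 0.972 with LF knockout replicate 1. HF knockout replicate 1 was nearest to LF floxed replicate 3 (0.97, against 0.967 with HF floxed replicate 3). LF knockout replicate 1 was nearest to LF floxed replicate 2 (0.986). HF knockout replicates 2 and 3 were nearest to HF floxed replicate 2 (0.917 and 0.97). Whether the diet labels of single knockout libraries hold was not tested. The libraries were compared as labelled.

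Thbs1, the gene of TSP1, had 0.16, 1.42 and 1.63 FPKM in HF knockout livers, against 0.08, 0.55 and 0.55 FPKM in LF knockout livers. Replicate 1 was low in each group, and the groups overlapped. The difference of the mean log2(FPKM + 1) was 0.5 (exact permutation test, two-sided, p = 0.3, where 0.1 is the lowest p that 3 against 3 can give). With a pseudocount of 0.1 it was 1.06 (exact permutation p = 0.4, two-sided). In whole liver, Thbs1 of cells other than macrophages is measured too, so these values do not check the knockout. In the list of TSP1, its family, receptors and partners, 10 of 13 genes were tested, with 8 higher and 2 lower. The latent cytokine Tgfb1 and the receptor Cd47, 2 of the 10 (20%), did not overlap between the groups. Over all tested genes, 5.59% had all HF knockout values above all LF knockout values. Tgfb1 had 7.09, 10.20 and 15.19 FPKM in HF knockout livers, against 3.63, 4.65 and 5.37 FPKM in LF knockout livers. Cd47 had 13.04, 18.20 and 15.65 FPKM in HF knockout livers, against 10.47, 11.32 and 10.76 FPKM in LF knockout livers. Neither difference passed correction (edgeR adjusted p of 0.344 for Tgfb1 and 0.346 for Cd47). The scavenger receptor Cd36 overlapped, at 4.51, 16.65 and 53.76 FPKM in HF knockout livers, against 16.39, 36.02 and 36.17 FPKM in LF knockout livers.

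Across the transcriptome no gene passed a false discovery rate of 5% between HF and LF knockout livers: edgeR called 0 of 12587 genes (0%), with a smallest adjusted p of 0.203. At an unadjusted p under 0.05 it found 1109 genes higher (8.81%) and 425 lower (3.38%) in HF knockout livers. DESeq2 called 126 genes, 105 higher and 21 lower, and limma voom with sample weights called 9. Without HF knockout replicate 3 edgeR called 10 genes, with Lcn2 among the 2 higher ones and the P450 gene Cyp3a11 among the 8 lower ones. As a description that does not rest on a fitted spread, 704 genes (5.59%) had all 3 HF knockout FPKM above all 3 LF knockout FPKM, and 753 (5.98%) had all 3 below. These shares are the background for each gene list below, and "not overlapping" is used in that sense. Of the 1109 genes that were higher at an unadjusted p under 0.05, 660 were highest in HF knockout replicate 2, and 499 of the 1109 did not overlap. Of the 126 genes called by DESeq2, 104 did not overlap, and 63 of the 105 higher ones were highest in HF knockout replicate 2. The log2 differences below come from the edgeR fit (HF knockout minus LF knockout), with a median of 0.03 over all tested genes. Since the main edgeR fit called no gene, "higher" and "lower" describe values.

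Lcn2, which encodes the siderophore-binding acute phase protein lipocalin 2, had the widest gap between the groups after the scarce transcripts Raet1d and Prtn3, among protein-coding genes averaging at least 1 FPKM in the higher group. It had 797.17, 707.42 and 293.05 FPKM in HF knockout livers, against 10.59, 37.24 and 37.88 FPKM in LF knockout livers. Every HF knockout library was above every LF knockout library, and the lowest of them was 7.72 times the highest LF knockout value, with 0.1 FPKM added to both. This is a log2 difference of 4.51 (SE 0.7, edgeR adjusted p = 0.26). Lcn2 was also higher on HF in floxed livers, where it had 159.44, 151.67 and 45.80 FPKM on HF, against 1.63, 6.89 and 4.37 FPKM on LF. The diet difference of Lcn2 did not differ detectably between genotypes (interaction log2 of 0.03, SE 0.96, edgeR adjusted p = 0.995).

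The metallothioneins, small zinc-binding and copper-binding proteins induced by metals, glucocorticoid and inflammation, separated the groups as well. Mt2 had 203.88, 75.96 and 39.93 FPKM in HF knockout livers, against 8.22, 6.89 and 7.37 FPKM in LF knockout livers (log2 difference of 3.98, SE 0.79, edgeR adjusted p = 0.344). Mt1 had 376.96, 145.49 and 91.71 FPKM in HF knockout livers, against 27.70, 11.33 and 12.93 FPKM in LF knockout livers (log2 difference of 3.69, SE 0.85, edgeR adjusted p = 0.344). Both genes were highest in HF knockout replicate 1 and did not overlap between the groups.

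The upstream windows of these genes are shown because Mt1 and Mt2 were high in the same libraries and Lcn2 led the comparison. Each is the 250 bases before the gene start in RefSeq (build GRCm38.p6, matched by symbol for 3 of 3 genes), 5′ to 3′ on the gene's strand. In the Mt1 window (chr8:94178839-94179088, plus strand) and the Mt2 window (chr8:94172368-94172617, plus strand), capitals mark the core of the metal response element, searched as TGCACNC and TGCGCNC on both strands. In the Lcn2 window (chr2:32387740-32387989, minus strand), capitals mark a core of C/EBP sites, searched as TTGCNCAA on both strands.
Mt1: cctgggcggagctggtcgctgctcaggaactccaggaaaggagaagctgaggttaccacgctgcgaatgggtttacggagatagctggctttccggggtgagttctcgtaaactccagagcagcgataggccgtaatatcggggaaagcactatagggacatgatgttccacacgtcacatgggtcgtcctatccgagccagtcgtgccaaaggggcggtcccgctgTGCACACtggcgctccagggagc
Mt2: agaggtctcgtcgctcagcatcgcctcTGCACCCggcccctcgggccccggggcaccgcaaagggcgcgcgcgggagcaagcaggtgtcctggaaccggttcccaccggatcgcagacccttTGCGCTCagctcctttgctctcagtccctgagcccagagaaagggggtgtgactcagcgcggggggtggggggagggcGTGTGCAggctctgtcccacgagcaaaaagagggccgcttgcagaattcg
Lcn2: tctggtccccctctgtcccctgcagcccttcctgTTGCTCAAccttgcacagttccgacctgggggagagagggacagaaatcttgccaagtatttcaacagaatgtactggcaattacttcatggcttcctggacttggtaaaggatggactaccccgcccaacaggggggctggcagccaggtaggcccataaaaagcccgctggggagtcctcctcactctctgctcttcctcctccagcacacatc
Within these 250 bases Mt1 held 1 match and Mt2 held 3. Bases after the RefSeq gene start or further upstream were not searched. The counts depend on where that start lies and do not cover a whole promoter. Of all 32851 RefSeq windows of this length, 21.4% held at least 1 match to either form, and 1.26% held at least 3. The C/EBP core, with 1 match before Lcn2, was found in 2.61% of the windows. The motifs do not overlap one another in these windows, and a match is a match of letters only.

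Other genes of smallest p that were higher in HF knockout livers were less abundant. Egr1, an immediate early transcription factor, had 10.17, 52.68 and 18.49 FPKM in HF knockout livers, against 2.71, 3.17 and 2.64 FPKM in LF knockout livers (log2 difference of 3.23, SE 0.7). Pfkfb4, an isoform of the enzyme that makes and breaks down fructose 2,6-bisphosphate, had 0.60, 1.56 and 1.10 FPKM in HF knockout livers, against 0.09, 0.11 and 0.13 FPKM in LF knockout livers, where the values rest on 17 estimated counts in all. Etv5, an ETS transcription factor, had 1.44, 3.49 and 2.40 FPKM in HF knockout livers, against 0.69, 0.71 and 1.08 FPKM in LF knockout livers. Tnfaip2, a gene induced by tumour necrosis factor, had 5.95, 17.87 and 11.09 FPKM in HF knockout livers, against 4.79, 4.56 and 4.79 FPKM in LF knockout livers. None of these genes overlapped between the groups, and the fold was largest in HF knockout replicate 2 for all 4. The zinc finger gene Zfp362 and the chromatin-associated Mum1 differed by less, with log2 differences of 0.95 (SE 0.18) and 1.21 (SE 0.23). The edgeR adjusted p was 0.344 for each of the 6. Morf4l1b, with the smallest p of all tested genes (edgeR adjusted p = 0.203), is described with the genotype below.

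Genes with a wide gap between the groups but low levels included Slamf9, a receptor of the SLAM family found on myeloid cells, Smpdl3b, a sphingomyelin phosphodiesterase-like membrane protein that dampens Toll-like receptor signalling, and Basp1, a membrane-associated signalling protein. Slamf9 had 3.6, 3.84 and 5.92 FPKM in HF knockout livers, against 0.33, 0.67 and 0.50 FPKM in LF knockout livers. Smpdl3b had 1.26, 2.12 and 1.64 FPKM in HF knockout livers, against 0.13, 0.20 and 0.30 FPKM in LF knockout livers. The LF knockout values of Smpdl3b rest on 19 estimated counts in all, and its log2 difference of 3.01 (SE 0.86) did not pass (edgeR adjusted p = 0.344). Basp1 had 3.6, 2.75 and 5.34 FPKM in HF knockout livers, against 0.51, 0.65 and 0.82 FPKM in LF knockout livers. The cell cycle inhibitor Cdkn2a had 2.53, 27.29 and 1.70 FPKM in HF knockout livers, against 0.15, 0.46 and 0.31 FPKM in LF knockout livers, with the highest value in replicate 2. Raet1d, a ligand of the activating receptor NKG2D, had 5.75, 2.58 and 7.31 FPKM in HF knockout livers and was listed in no LF knockout file. Near-identical copies of Raet1d exist, so its estimated counts are uncertain, and it had 0.72, 0.00 and 7.91 FPKM in HF floxed livers, against 0.00, 2.56 and 0.00 FPKM in LF floxed livers.

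**Figure D1:**
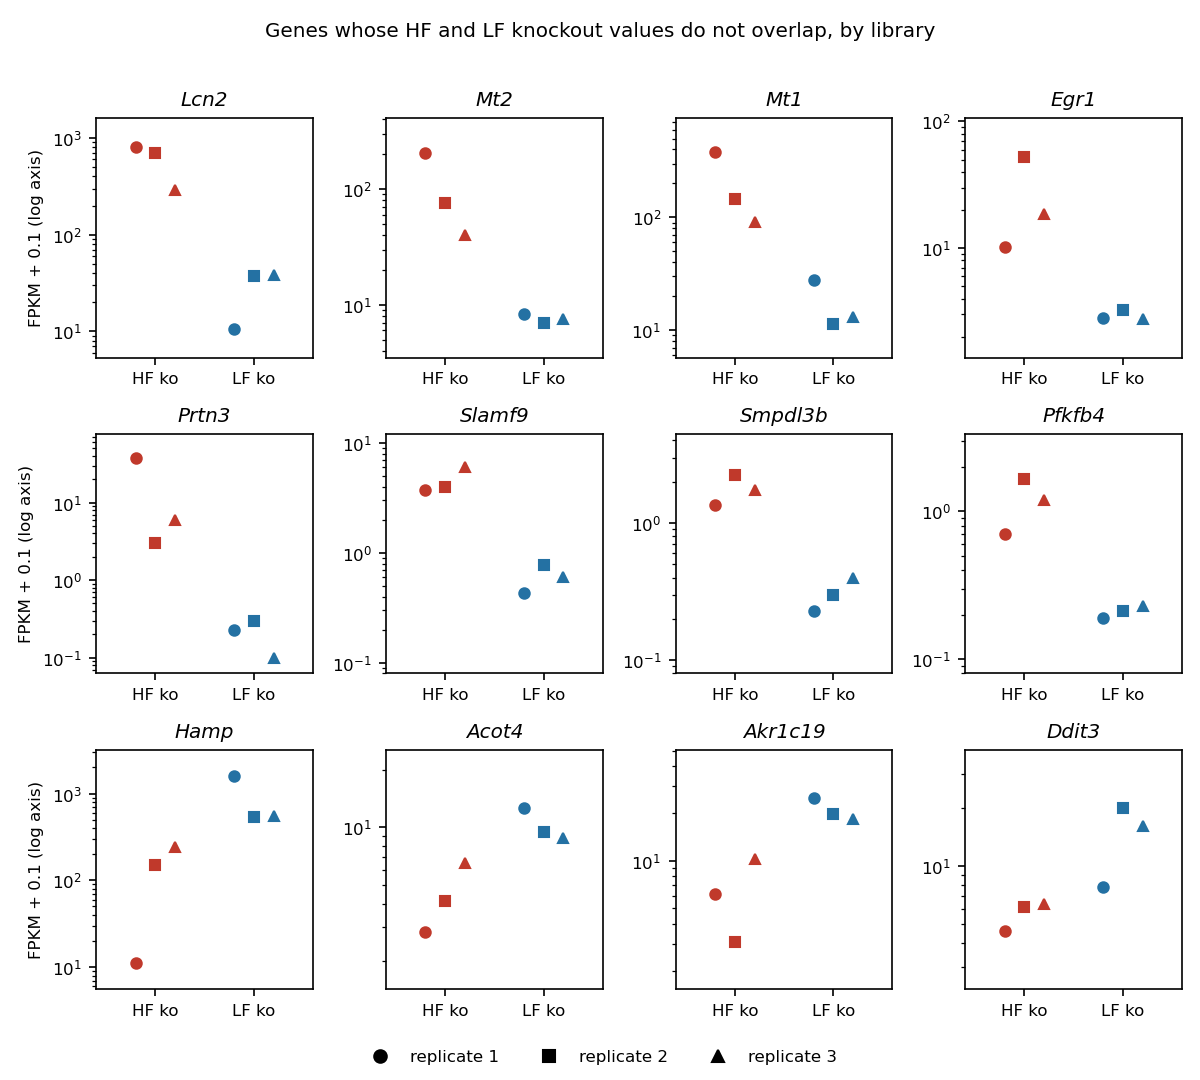
FPKM plus 0.1 on log axes for 12 genes whose values do not overlap, with HF knockout libraries (red) left of LF knockout libraries (blue); symbols give the replicate number. Lcn2 is at 293.05 to 797.17 FPKM in HF knockout livers and at 10.59 to 37.88 FPKM in LF knockout livers, and Hamp, Acot4, Akr1c19 and Ddit3 run the other way.

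Among genes lower in HF knockout livers, the G protein subunit Gnai1 had the smallest p, with 0.19, 0.08 and 0.04 FPKM in HF knockout livers, against 0.54, 1.39 and 1.06 FPKM in LF knockout livers (log2 difference of -3.12, SE 0.58, edgeR adjusted p = 0.344). Acot4, a peroxisomal acyl-CoA thioesterase, had 2.75, 4.03 and 6.44 FPKM in HF knockout livers, against 12.60, 9.38 and 8.73 FPKM in LF knockout livers. Ddit3, the stress transcription factor CHOP, had 4.50, 6.04 and 6.26 FPKM in HF knockout livers, against 7.72, 19.87 and 16.07 FPKM in LF knockout livers. Phlda1, a pleckstrin homology-like protein, had 27.99, 26.58 and 15.64 FPKM in HF knockout livers, against 36.76, 90.71 and 100.48 FPKM in LF knockout livers. These 4 genes did not overlap, and LF knockout replicate 1 held the LF value nearest to the HF range for Gnai1, Ddit3 and Phlda1. Pdhb, a subunit of pyruvate dehydrogenase, had 36.30, 32.19 and 55.31 FPKM in HF knockout livers, against 83.28, 71.07 and 71.23 FPKM in LF knockout livers. Akr1c19, an aldo-keto reductase, had 6.09, 2.98 and 10.12 FPKM in HF knockout livers, against 25.13, 19.72 and 18.46 FPKM in LF knockout livers. The zinc finger gene Zfp574 differed by less but with little spread, at 2.71, 3.16 and 3.73 FPKM in HF knockout livers, against 4.81, 4.98 and 5.25 FPKM in LF knockout livers (log2 difference of -0.62, SE 0.13, edgeR adjusted p = 0.344). The polo-like kinase Plk3 had 5.06, 3.67 and 4.62 FPKM in HF knockout livers, against 12.28, 31.64 and 29.70 FPKM in LF knockout livers. Mup20, the major urinary protein darcin, had 3236.11, 1716.98 and 2616.76 FPKM in HF knockout livers, against 7507.92, 6483.07 and 6177.04 FPKM in LF knockout livers.

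Hamp, the gene of the iron hormone hepcidin, was far lower in HF knockout livers, with 11.04, 150.80 and 244.22 FPKM, against 1586.64, 529.89 and 557.43 FPKM in LF knockout livers. Its paralog Hamp2 had 8.67, 7.37 and 87.01 FPKM in HF knockout livers, against 364.45, 127.60 and 133.34 FPKM in LF knockout livers. Neither gene overlapped between the groups, and both were highest in LF knockout replicate 1. The log2 differences were -2.84 (SE 0.86) for Hamp and -2.71 (SE 0.9) for Hamp2, and the estimated counts of these similar copies are uncertain. In the list of metal-handling genes, 8 of 15 tested members were higher and 7 lower, and the zinc importer Slc39a4 had 12.72, 97.03 and 28.76 FPKM in HF knockout livers, against 6.51, 10.07 and 13.19 FPKM in LF knockout livers.

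The acute phase list held the largest share of separated genes. All 25 members were tested: 23 were higher and 2 lower in HF knockout livers, with a median log2 difference of 1.1, against 0.03 over all tested genes. Of these, 11 (44%) lay above the LF knockout range without overlap, against 5.59% of all tested genes, and Hamp lay below it. Beside Lcn2, the 11 include haptoglobin (Hp), the haem scavenger hemopexin (Hpx), the protease inhibitor Serpina3n and ceruloplasmin (Cp), the copper ferroxidase. Hp had 6990.09, 3125.24 and 3680.35 FPKM in HF knockout livers, against 1745.02, 1990.14 and 2048.45 FPKM in LF knockout livers (log2 difference of 1.36, SE 0.38, edgeR adjusted p = 0.344). Serpina3n had 726.27, 575.44 and 325.77 FPKM in HF knockout livers, against 192.04, 233.08 and 233.13 FPKM in LF knockout livers. The lipopolysaccharide co-receptor Cd14 had 3.32, 11.88 and 5.54 FPKM in HF knockout livers, against 0.98, 1.51 and 1.51 FPKM in LF knockout livers.

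The 3 HF knockout livers did not share 1 acute phase pattern. On the CPM scale (counts scaled to library size, with TMM factors), replicate 1 was above all 3 LF knockout libraries for 24 of the 25 genes, against 32.9% of all tested genes, while replicates 2 and 3 were above for 15 each, against 36.9% and 30.2% of all tested genes. Saa1, a serum amyloid A protein, had 3482.61, 21.83 and 419.14 FPKM in HF knockout livers, against 43.03, 130.85 and 126.87 FPKM in LF knockout livers. Saa2 had 1825.93, 7.41 and 169.62 FPKM in HF knockout livers, against 16.47, 62.32 and 74.74 FPKM in LF knockout livers. Replicate 1 was the highest and replicate 2 the lowest of all 6 libraries for both, so the groups overlapped. Orm2, an orosomucoid, followed the same order, with 754.53, 8.53 and 91.24 FPKM in HF knockout livers, against 20.28, 37.60 and 39.71 FPKM in LF knockout livers. The Saa and Orm genes are families of similar copies, and the split of reads between copies is uncertain. C-reactive protein (Crp), a minor acute phase protein in mice, had 229.99, 69.65 and 183.10 FPKM in HF knockout livers, against 216.41, 215.54 and 212.45 FPKM in LF knockout livers. The median of the list was 0.46 without HF knockout replicate 1 and 1.44 without replicate 2. In floxed livers the median log2 difference between diets was 0.28, with 17 of 25 higher on HF.

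Neutrophil genes were high in 1 HF knockout liver. S100a8, a subunit of calprotectin, had 2.55, 0.93 and 176.38 FPKM in HF knockout livers, against 0.92, 1.10 and 0.73 FPKM in LF knockout livers. Its partner S100a9 had 5.62, 2.35 and 187.42 FPKM in HF knockout livers, against 1.41, 1.15 and 1.79 FPKM in LF knockout livers. Ngp, a neutrophil granule protein, had 1.52, 0.55 and 82.26 FPKM in HF knockout livers, against 0.00, 0.11 and 0.38 FPKM in LF knockout livers. Replicate 3 was the highest library in each case, and S100a8 overlapped between the groups while S100a9 and Ngp did not. Prtn3, a serine protease of granules, had its maximum elsewhere, at 37.99, 2.94 and 5.88 FPKM in HF knockout livers, against 0.13, 0.20 and 0.00 FPKM in LF knockout livers, where the values rest on 5 estimated counts. All 10 tested neutrophil genes of 18 listed were higher and 4 (40%) did not overlap, against 5.59% of all tested genes. The median log2 difference was 5.04, and 1.12 without HF knockout replicate 3. Members were tested only where enough libraries held counts, so these counts only describe the values. The other 8, among them Camp and Mpo, did not pass the filter on low counts and were each highest in HF knockout replicate 3, where they summed to 83.4 FPKM, against 3.28 and 0.1 FPKM in HF knockout replicates 1 and 2 and 0.34 to 0.87 FPKM in LF knockout livers. In bulk tissue, more cells of a type and more RNA per cell cannot be told apart. The megakaryocyte chemokine Ppbp was high in the same liver, with 1.34, 0.59 and 13.41 FPKM in HF knockout livers, against 0.53, 0.29 and 0.35 FPKM in LF knockout livers.

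Markers of lipid-associated and monocyte-derived macrophages were higher in HF knockout livers throughout the list: 18 of 18 tested members, with a median log2 difference of 1.97 and 6 (33.3%) above the LF knockout range. Trem2, the lipid-sensing receptor of these macrophages, had 2.11, 1.79 and 6.63 FPKM in HF knockout livers, against 0.31, 0.76 and 1.31 FPKM in LF knockout livers. The galectin Lgals3 had 13.56, 14.46 and 24.31 FPKM in HF knockout livers, against 2.31, 4.63 and 4.17 FPKM in LF knockout livers. Ms4a7 had 1.99, 1.35 and 5.28 FPKM in HF knockout livers, against 0.48, 0.29 and 0.48 FPKM in LF knockout livers. The integrins Itgam and Itgax, with the fractalkine receptor Cx3cr1, complete the 6, and replicate 3 held the highest value of each. Osteopontin (Spp1), which cholangiocytes and other cells make too, overlapped, with 23.54, 743.15 and 46.19 FPKM in HF knockout livers, against 18.83, 30.93 and 24.61 FPKM in LF knockout livers. The list was also higher on HF in floxed livers, with a median log2 difference of 1.51 and 15 of 18 members higher. No member of the list passed correction (smallest edgeR adjusted p of 0.344).

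Kupffer cell and pan-macrophage markers were higher in 13 of 15 cases, with a median log2 difference of 1.19 (0.68 without HF knockout replicate 3), yet 0 of 15 separated the groups. HF knockout replicates 1 and 3 were above all LF knockout libraries for 13 of 15 members each, against 32.9% and 30.2% of all tested genes. Replicate 2 was above for 0 and below for 7, against 36.9% and 37.1% of all tested genes. Cd68, a lysosomal protein of macrophages, had 21.86, 9.96 and 46.28 FPKM in HF knockout livers, against 5.47, 10.12 and 8.79 FPKM in LF knockout livers. The scavenger receptor Marco had 23.98, 0.06 and 48.06 FPKM in HF knockout livers, against 2.44, 3.53 and 2.86 FPKM in LF knockout livers. Clec4f, which defines Kupffer cells in mice, had 29.28, 10.84 and 41.60 FPKM in HF knockout livers, against 18.16, 22.63 and 22.49 FPKM in LF knockout livers. Lyz2, lysozyme of macrophages and neutrophils, ran the other way in replicate 3, with 25.47, 15.30 and 1.35 FPKM in HF knockout livers, against 12.48, 37.03 and 33.95 FPKM in LF knockout livers. The library with the highest Cd68, Marco and Clec4f thus had the lowest Lyz2.

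Chemokines and inflammatory mediators were higher for 19 of 20 tested members of 22 listed, with a median log2 difference of 1.12 and 4 (20%) above the LF knockout range. The median ran from 0.75 to 1.18 with 1 knockout library left out. It was 0.77 under limma voom with sample weights and 0.62 under limma on log2(FPKM + 1). The B cell chemokine Cxcl13 had 5.65, 23.59 and 2.60 FPKM in HF knockout livers, against 0.72, 1.11 and 0.83 FPKM in LF knockout livers. The neutrophil chemokine Cxcl1 had 26.96, 15.71 and 12.02 FPKM in HF knockout livers, against 5.12, 7.31 and 10.20 FPKM in LF knockout livers. The adhesion molecule Icam1 had 9.95, 17.69 and 8.58 FPKM in HF knockout livers, against 4.42, 6.12 and 5.80 FPKM in LF knockout livers. Interleukin 1β (Il1b) overlapped, with 3.80, 0.62 and 4.64 FPKM in HF knockout livers, against 0.20, 0.69 and 0.89 FPKM in LF knockout livers. Among other immune lists, T, NK and B cell markers had 10 of 13 tested members higher and 2 (15.4%) above the LF knockout range. Interferon genes had 17 of 26 and 1 (3.85%), and MHC class II genes 8 of 8 and 0, against 5.59% of all tested genes. Their median log2 differences were 0.32 for the lymphocyte markers, 0.16 for the interferon genes and 0.43 for MHC class II. Without LF knockout replicate 1 these medians were -0.05, -0.1 and 0.16, and the MHC class II median was 0.12 without HF knockout replicate 2. Under limma voom with sample weights the medians were -0.09 for the interferon genes and -0.06 for MHC class II.

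Matrix and stellate cell genes did not separate the groups beyond the background. Of 30 tested members 21 were higher, with a median log2 difference of 0.42 (0.17 to 0.63 with 1 knockout library left out), and Tgfb1 was the 1 member (3.33%) without overlap. Sparc, a matrix-binding glycoprotein, had 9.86, 245.13 and 32.74 FPKM in HF knockout livers, against 14.06, 20.26 and 21.08 FPKM in LF knockout livers. The collagen gene Col4a2 had 1.55, 14.48 and 4.80 FPKM in HF knockout livers, against 1.52, 2.5 and 2.66 FPKM in LF knockout livers. HF knockout replicate 1 was below all LF knockout libraries for 17 of 30 members, against 33.9% of all tested genes. Replicates 2 and 3 were above for 19 and 23, against 36.9% and 30.2% of all tested genes. In floxed livers the HF diet came with higher values for 29 of 30 members and a median log2 difference of 1.13. Endothelial markers also split by library. Replicate 1 was below all LF knockout libraries for 17 of 17 members, against 33.9% of all tested genes. Replicates 2 and 3 were above for 10 and 12, against 36.9% and 30.2%. Their summed level was 51.3, 160 and 188 FPKM in HF knockout livers, against 135 to 143 FPKM in LF knockout livers. Hepatocyte genes had a median log2 difference of 0.01 with 10 of 19 higher, and albumin (Alb) was abundant throughout, with 20592.94, 72054.23 and 34960.99 FPKM in HF knockout livers, against 40501.10, 29977.58 and 30047.81 FPKM in LF knockout livers. The share that these cell types had in any of the gene differences was not tested.

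**Figure D2:**
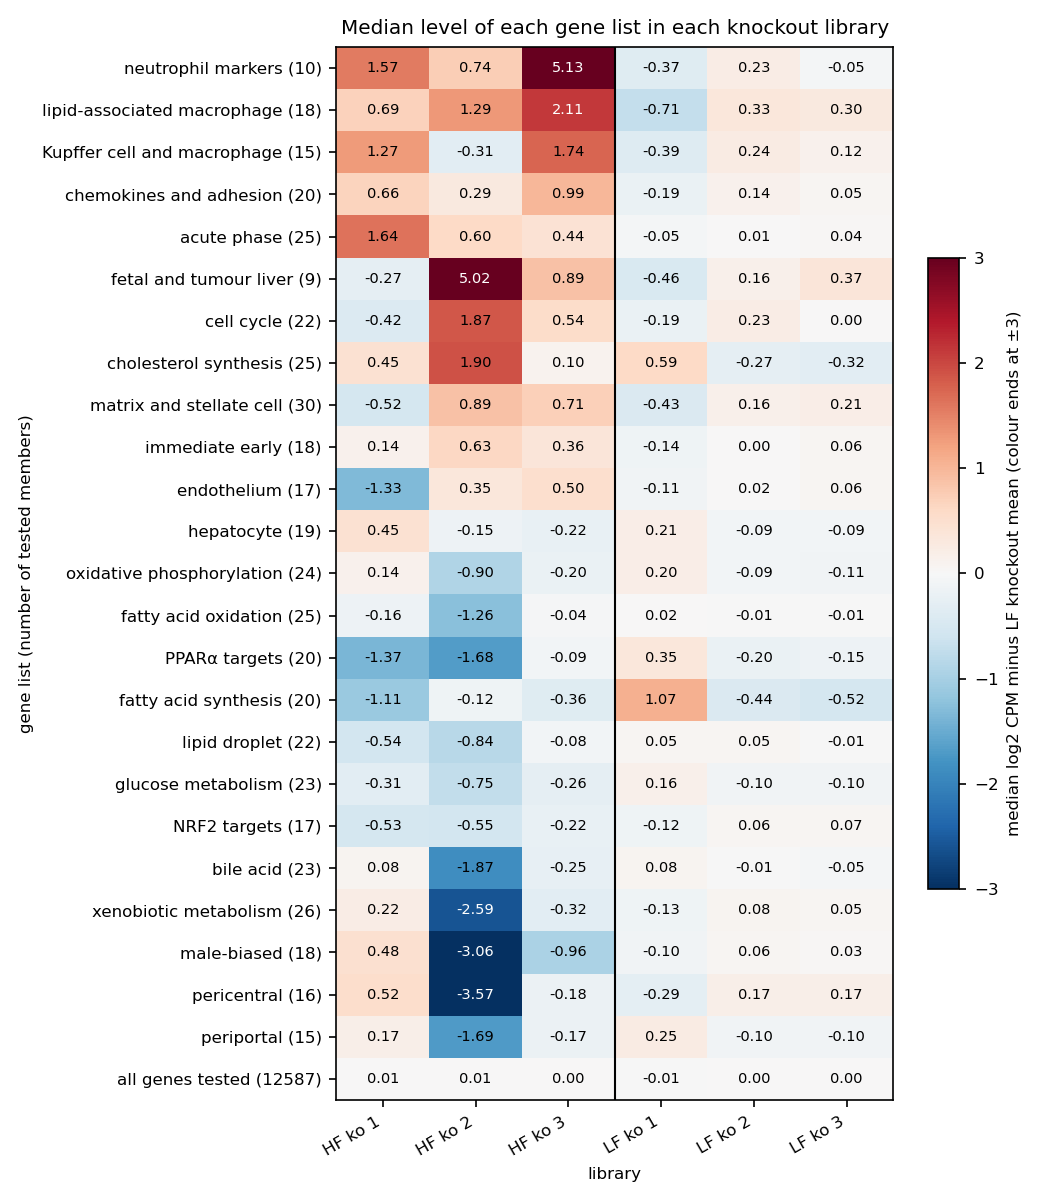
Median over the tested members of each gene list of the log2 CPM (counts scaled to library size by TMM) minus the LF knockout mean, for the 3 HF knockout libraries (left) and the 3 LF knockout libraries (right). HF knockout replicate 2 has the fetal liver (5.02) and pericentral (-3.57) extremes, replicate 3 the neutrophil extreme (5.13) and replicate 1 the acute phase (1.64) and endothelial (-1.33) extremes.

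Genes of cholesterol synthesis were higher for 23 of 25 tested members, with a median log2 difference of 0.85, and 4 (16%) lay above the LF knockout range. These 4 were mevalonate kinase (Mvk), the isomerase Idi1, the sterol demethylation enzyme Msmo1 and their transcription factor Srebf2. Mvk had 13.52, 39.33 and 10.66 FPKM in HF knockout livers, against 5.20, 4.41 and 5.45 FPKM in LF knockout livers (log2 difference of 2.09, SE 0.46, edgeR adjusted p = 0.344). Msmo1 had 69.33, 140.04 and 58.39 FPKM in HF knockout livers, against 36.93, 28.63 and 30.45 FPKM in LF knockout livers. HF knockout replicate 2 was above all LF knockout libraries for 24 of 25 members and replicate 3 for 4, against 36.9% and 30.2% of all tested genes. The median of the list was 0.22 without replicate 2. In floxed livers the median was -0.49, with 3 of 25 higher on HF.

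Genes of fatty acid and triglyceride synthesis were lower for 15 of 20 members, with a median log2 difference of -0.27, and 3 (15%) lay below the LF knockout range, against 5.98% of all tested genes. Malic enzyme (Me1), a source of NADPH for fatty acid synthesis, had 11.36, 14.17 and 49.36 FPKM in HF knockout livers, against 179.68, 57.91 and 60.83 FPKM in LF knockout livers. Thrsp, the lipogenic factor Spot 14, had 60.68, 32.03 and 87.82 FPKM in HF knockout livers, against 372.15, 131.73 and 122.75 FPKM in LF knockout livers. The desaturase Scd1 had 73.01, 1262.14 and 1318.03 FPKM in HF knockout livers, against 4811.33, 1435.43 and 1432.80 FPKM in LF knockout livers. LF knockout replicate 1 was the highest library for all 3 genes, and the median of the list was -0.01 without it and -0.8 without HF knockout replicate 2. Lipid droplet genes were lower for 17 of 22 members in knockout livers (median log2 difference of -0.29, and -0.92 without HF knockout replicate 3), and higher on HF for 15 of 22 in floxed livers (median of 0.51). The intestinal-type fatty acid binding protein Fabp2 had 46.42, 63.37 and 93.23 FPKM in HF knockout livers, against 96.86, 129.54 and 117.05 FPKM in LF knockout livers.

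Targets of PPARα, the nuclear receptor that drives hepatic fatty acid oxidation, were lower for 18 of 20 members, with a median log2 difference of -0.71. It was -0.39 without LF knockout replicate 1 and -1.33 without HF knockout replicate 3. Of the 20, Acot3, Acot4, Fabp1 and Pex11a (20%) lay below the LF knockout range. Pex11a, a factor of peroxisome division, had 16.93, 10.34 and 49.78 FPKM in HF knockout livers, against 59.02, 60.28 and 55.59 FPKM in LF knockout livers. Fabp1, the liver fatty acid binding protein, had 4520.54, 2103.04 and 6169.32 FPKM in HF knockout livers, against 11461.19, 6808.89 and 6603.64 FPKM in LF knockout livers. HF knockout replicates 1 and 2 were below all LF knockout libraries for 15 and 17 members and replicate 3 for 6, against 33.9%, 37.1% and 27.7% of all tested genes. Fatty acid oxidation genes were lower for 22 of 25 members (median of -0.36, and -0.1 without HF knockout replicate 2). Of the 25, 3 (12%) lay below the LF range, against 5.98% of all tested genes. The peroxisomal thiolase Acaa1b had 206.46, 85.26 and 724.71 FPKM in HF knockout livers, against 839.65, 1068.57 and 1056.36 FPKM in LF knockout livers. Oxidative phosphorylation subunits were lower for 24 of 24 members by a small amount, with a median log2 difference of -0.31, 4 of them (16.7%) without overlap, and a median of -0.07 without HF knockout replicate 2 and -0.55 without replicate 1. In floxed livers the medians of these lists were 0.14, 0.26 and -0.19.

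Targets of NRF2, the antioxidant transcription factor, had the largest share below the LF knockout range: 8 of 17 (47.1%), with 13 of 17 lower and a median log2 difference of -0.61. The 8 were Nqo1, Gclm, Gsta2, Gsta4, Gstm1, Gstm2, Txnrd1 and Ephx1. Gstm1, an abundant glutathione transferase, had 929.08, 637.87 and 1552.16 FPKM in HF knockout livers, against 2030.70, 1976.99 and 2126.60 FPKM in LF knockout livers (log2 difference of -0.96, SE 0.37, edgeR adjusted p = 0.356). The epoxide hydrolase Ephx1 had 90.93, 164.64 and 208.80 FPKM in HF knockout livers, against 241.26, 283.73 and 310.26 FPKM in LF knockout livers. The quinone reductase Nqo1 had 2.84, 0.58 and 3.40 FPKM in HF knockout livers, against 3.79, 5.62 and 4.39 FPKM in LF knockout livers. The median stayed between -0.63 and -0.47 when any 1 of the 6 knockout libraries was left out. G6pdx, the first enzyme of the pentose phosphate pathway, ran the other way in replicate 2, with 2.37, 16.44 and 5.38 FPKM in HF knockout livers, against 2.62, 1.61 and 0.97 FPKM in LF knockout livers. In floxed livers 15 of 17 members were higher on the HF diet (median log2 difference of 0.44). The glutathione transferases are similar copies, and their estimated counts are uncertain.

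Genes of glucose metabolism were lower for 17 of 23 members, with a median log2 difference of -0.43 (-0.21 without HF knockout replicate 2, -0.24 without LF knockout replicate 1) and 7 (30.4%) below the LF knockout range. Liver pyruvate kinase (Pklr) had 35.75, 61.67 and 78.23 FPKM in HF knockout livers, against 190.86, 83.09 and 85.96 FPKM in LF knockout livers. Glycogen phosphorylase (Pygl) had 80.28, 70.28 and 140.52 FPKM in HF knockout livers, against 150.47, 156.34 and 152.29 FPKM in LF knockout livers. Bile acid genes were lower for 20 of 23 members (median of -0.54), with 5 (21.7%) below the LF range. The bile salt export pump Abcb11 had 68.28, 28.46 and 71.93 FPKM in HF knockout livers, against 106.12, 92.45 and 91.75 FPKM in LF knockout livers. The FGF co-receptor Klb had 4.27, 2.79 and 5.06 FPKM in HF knockout livers, against 9.52, 6.20 and 7.38 FPKM in LF knockout livers. HF knockout replicate 2 was below all LF knockout libraries for 22 of 23 bile acid genes, against 37.1% of all tested genes. The median of the list was -0.09 without this library.

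**Figure D3:**
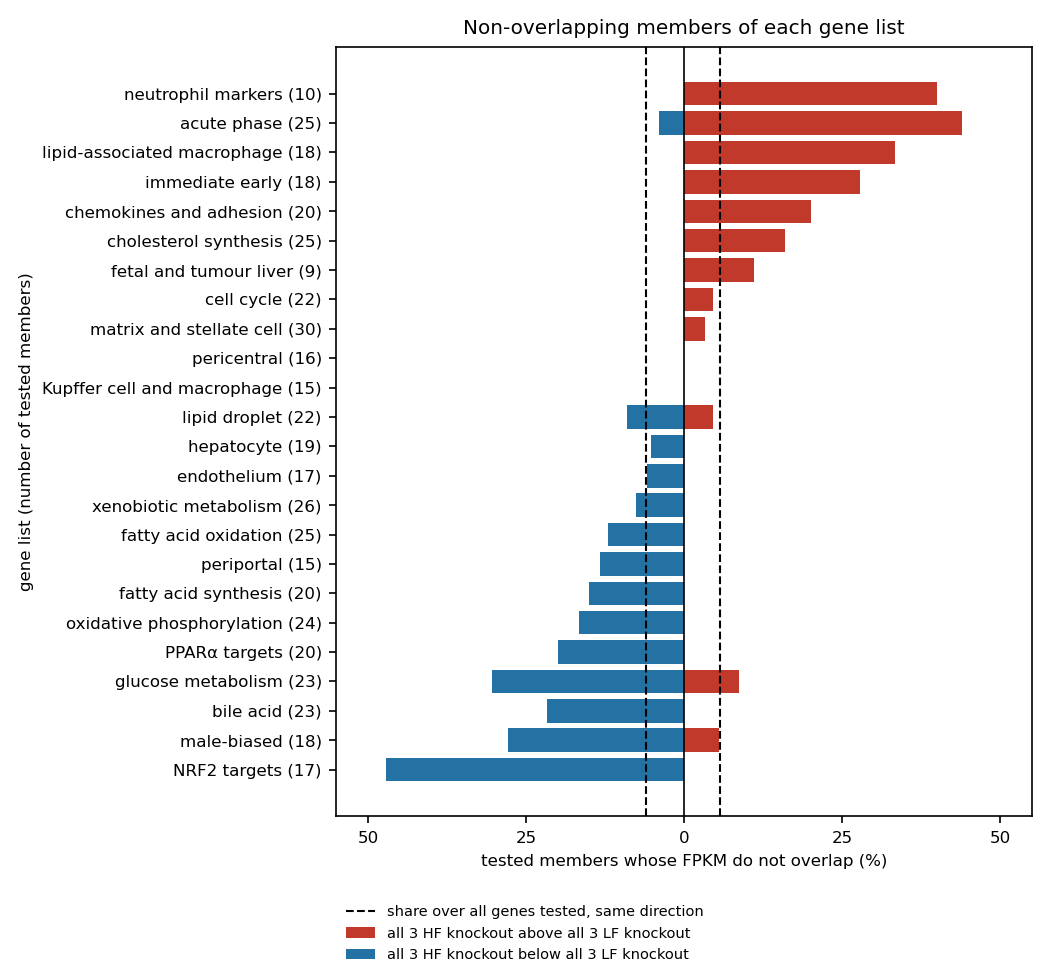
Percentage of the tested members of each list with all 3 HF knockout FPKM above (red, right) or below (blue, left) all 3 LF knockout FPKM; dashed lines give the shares over all tested genes (5.59% and 5.98%). Acute phase genes (44%) lie furthest to the right and NRF2 targets (47.1%) furthest to the left.

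Immediate early genes were higher for 13 of 18 tested members of 19, with a median log2 difference of 0.38 (0.15 without HF knockout replicate 2) and 5 (27.8%) above the LF knockout range, namely Egr1, Fos, Junb, Ier2 and Nr4a1. Junb, an AP-1 subunit, had 45.22, 45.36 and 24.46 FPKM in HF knockout livers, against 22.09, 15.48 and 15.36 FPKM in LF knockout livers. Ier2 had 19.67, 33.31 and 16.32 FPKM in HF knockout livers, against 13.03, 10.95 and 10.57 FPKM in LF knockout livers. Jun, another AP-1 subunit, was on the other side, with 3.46, 7.99 and 11.02 FPKM in HF knockout livers, against 8.27, 16.45 and 17.62 FPKM in LF knockout livers. Circadian clock genes were lower for 17 of 19 members (median of -0.39) and 4 (21.1%) lay below the LF range, against 5.98% of all tested genes. The clock repressor Nr1d2 had 4.07, 3.29 and 5.44 FPKM in HF knockout livers, against 14.45, 5.99 and 6.15 FPKM in LF knockout livers, and the median of the list was 0.03 without LF knockout replicate 1 and -0.61 without HF knockout replicate 1.

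Genes of sphingomyelin and ceramide metabolism were close to evenly split, with 15 of 26 tested members higher and a median log2 difference of 0.04. Smpdl3b, Smpd3 and the dihydroceramide desaturase Degs2 (11.5%) lay above the LF knockout range, and 0 members lay below it. Smpd3, a neutral sphingomyelinase, had 1.37, 9.80 and 2.58 FPKM in HF knockout livers, against 0.39, 0.89 and 0.66 FPKM in LF knockout livers (log2 difference of 2.77, SE 0.72, edgeR adjusted p = 0.344). Sptlc3, a subunit of serine palmitoyltransferase, was nearly absent from HF knockout livers, at 0.03, 0.00 and 0.00 FPKM, against 0.00, 2.28 and 2.48 FPKM in LF knockout livers. LF knockout replicate 1 lacked it too.

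Unfolded protein response genes had 9 of 15 members lower and a median log2 difference of -0.12, and Creld2, Manf and Herpud1 (20%) lay below the LF knockout range, against 5.98% of all tested genes. With 1 knockout library left out the median ran from -0.24 to -0.02. Herpud1, a factor of protein degradation at the endoplasmic reticulum, had 119.61, 83.85 and 102.16 FPKM in HF knockout livers, against 210.92, 186.10 and 177.00 FPKM in LF knockout livers. In the integrated stress response list 9 of 16 tested members were higher (median of 0.06, and -0.36 without HF knockout replicate 2). Ddit3 was the 1 member (6.25%) below the LF range, near the 5.98% of all tested genes. Genes of IL-6 and STAT3 signalling had 13 of 18 tested members higher (median of 0.25, and -0.08 without HF knockout replicate 1). Of the 18, 2 (11.1%) lay above and 1 (5.56%) below the LF range, against 5.59% and 5.98% of all tested genes. Glucocorticoid targets had a median of -0.21 (-0.01 without LF knockout replicate 1). Growth hormone and IGF1 genes had one of -0.22, which was -0.85 without HF knockout replicate 1 and 0.09 without HF knockout replicate 2. Periportal genes had one of -0.38, which was -0.8 without HF knockout replicate 1 and 0 without HF knockout replicate 2. The 9 tested female-biased genes of 17 listed had a median of 0.05, -0.31 without LF knockout replicate 1 and 0.46 without LF knockout replicate 3, and 2 (22.2%) lay below the LF range. The erythroid list (10 of 15 tested) had a median of -0.45, and the cholangiocyte list (8 of 11) one of 0.36, which was -0.45 without HF knockout replicate 2. Markers of neighbouring tissues (3 of 14) had a median of 0.82, which ran from 0.39 to 1.41 with 1 library left out. The summed level of the neighbouring-tissue markers was 39.1 to 53.4 FPKM in HF knockout livers, against 10.7 to 41.6 FPKM in LF knockout livers.

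Each HF knockout liver also had genes far outside the range of the other 5 knockout libraries, given here as values with no test. HF knockout replicate 1 had the highest Mup11, a major urinary protein, at 12990.49 FPKM, against 1950.32 FPKM in the nearest of the other 5. It had the lowest Cidec, a lipid droplet fusion protein, at 0.22 FPKM, against 8.62 FPKM in the next lowest library. Its Scd1 of 73.01 FPKM stood against 1262.14 FPKM in the next lowest, and its Fgf21, a hepatokine, was 1.64 FPKM, against 7.02 FPKM. Major urinary proteins are near-identical copies, and the share of each is uncertain.

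HF knockout replicate 2 carried transcripts that are scarce in adult liver. The glypican Gpc3 had 0.00, 101.49 and 0.06 FPKM in HF knockout livers, against 0.33, 0.44 and 0.44 FPKM in LF knockout livers. Alpha-fetoprotein (Afp) had 0.09, 29.98 and 0.36 FPKM in HF knockout livers, against 0.09, 0.15 and 0.21 FPKM in LF knockout livers. The tetraspanin Tspan8 had 280.45 FPKM in replicate 2, against 0.51 FPKM in the highest of the other 5. Akr1c18, a progesterone-metabolising reductase, had 199.49 FPKM in replicate 2, against 0.32 FPKM. The cell cycle inhibitor Cdkn2b had 33.90 FPKM there, against 0.32 FPKM in the highest of the other 5. Igfbp1, an insulin-repressed binding protein, had 7.69, 790.05 and 22.63 FPKM in HF knockout livers, against 14.87, 15.11 and 14.52 FPKM in LF knockout livers. Cell cycle genes followed: the mitotic cyclin Ccna2 had 0.38, 5.68 and 1.36 FPKM in HF knockout livers, against 0.51, 0.66 and 0.63 FPKM in LF knockout livers. The median of the fetal and tumour liver list (9 of 13 tested) was 3.48 with replicate 2 and 0.2 without it, and that of the cell cycle list 0.72 and -0.06.

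The same liver had low levels of many pericentral, xenobiotic and male-biased genes. Cyp1a2, a pericentral drug-metabolising P450, had 314.95, 0.20 and 120.79 FPKM in HF knockout livers, against 122.95, 180.44 and 187.07 FPKM in LF knockout livers. Elovl3, a fatty acid elongase, had 40.62, 0.14 and 58.05 FPKM in HF knockout livers, against 57.02, 140.00 and 147.55 FPKM in LF knockout livers. Replicate 2 was below all LF knockout libraries for 16 of 16 pericentral genes and 22 of 26 xenobiotic genes, against 37.1% of all tested genes. Replicates 1 and 3 were below for 1 and 6 pericentral genes, against 33.9% and 27.7% of all tested genes. The list of hepatocyte genes was mixed in replicate 2. It was above all LF knockout libraries for 7 of 19 members and below for 10, against 36.9% and 37.1% of all tested genes. Albumin was higher there than in any other knockout liver, as given above. The medians of the pericentral and xenobiotic lists were -0.29 and -0.32 with replicate 2, and 0.16 and -0.05 without it. Without replicate 1 they were -0.94 and -1.07. Male-biased genes were lower for 13 of 18 members, with a median log2 difference of -0.48, -1.73 without HF knockout replicate 1 and -0.1 without HF knockout replicate 2. Of the 18, 5 (27.8%) lay below the LF range and 1 above it. On the CPM scale replicates 2 and 3 were below all LF knockout libraries for 17 and 16 of them, against 37.1% and 27.7% of all tested genes. Replicate 1 was above for 12, against 32.9%. Cyp4a12b, a male-specific P450 in mice, had 2.24, 0.13 and 0.50 FPKM in HF knockout livers, against 8.76, 11.72 and 10.01 FPKM in LF knockout livers.

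HF knockout replicate 3, beside its neutrophil genes, had the highest Cyp2c39, a retinoic acid hydroxylase, at 84.38 FPKM, against 1.96 FPKM in the highest of the other 5 knockout libraries. HF floxed replicates 1 and 2 had similar levels, at 66.31 and 77.22 FPKM, so this gene was shared with part of another group. It had the lowest Foxq1, a forkhead factor, at 2.74 FPKM, against 6.85 FPKM in the next lowest library. It also had the highest Chil3, a chitinase-like protein of myeloid cells, at 8.30 FPKM, against 0.33 FPKM in the highest of the other 5.

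**Figure D4:**
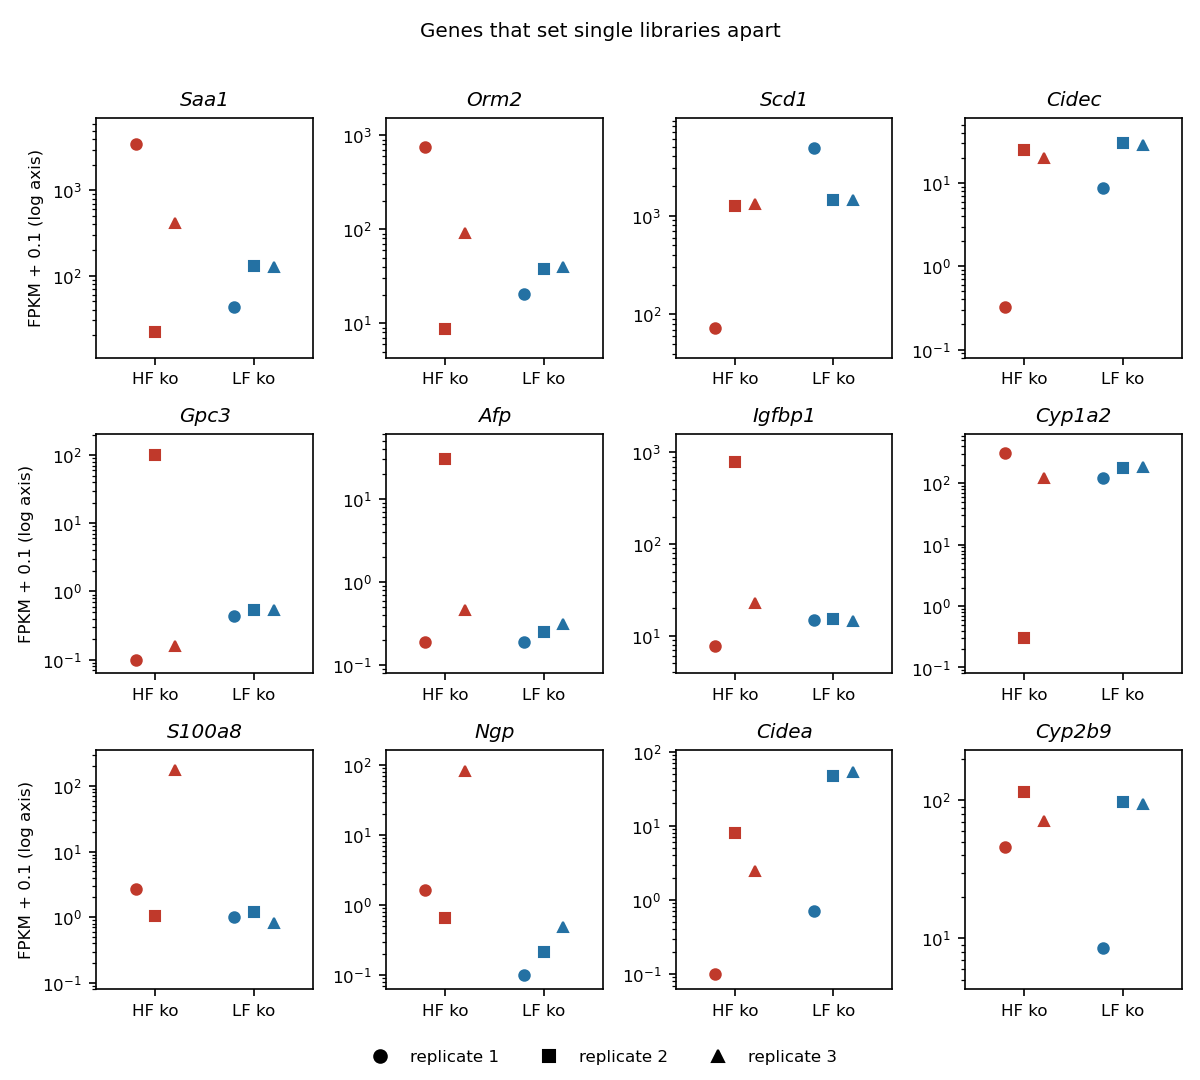
FPKM plus 0.1 on log axes for 12 genes, with HF knockout libraries (red) left of LF knockout libraries (blue); symbols give the replicate number. Saa1, Scd1 and Cidec set replicate 1 of HF knockout apart, Gpc3, Afp, Igfbp1 and Cyp1a2 replicate 2 and S100a8 and Ngp replicate 3, while Cidea and Cyp2b9 are low in LF knockout replicate 1 and high in LF knockout replicates 2 and 3.

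Whether the diet difference in knockout livers differed from that in floxed livers was tested as the diet by genotype interaction over all 12 libraries. The floxed and knockout comparisons share no libraries. edgeR called 2 of 12587 genes (0.0159%), Morf4l1b and Gnai1. Morf4l1b, a gene closely similar to the chromatin protein gene Morf4l1, averaged 12.8 ± 3.12 FPKM in HF knockout livers and 4.56 ± 0.581 FPKM in LF knockout livers. In floxed livers it averaged 5.09 ± 0.494 FPKM on HF and 13 ± 2.44 FPKM on LF (SD, n = 3 in each group). The diet difference was log2 1.5 (SE 0.21) in knockout livers and log2 -1.6 in floxed livers, an interaction of 3.11 (SE 0.3, edgeR adjusted p = 0.00452). Because Morf4l1b resembles its parent gene, its estimated counts are uncertain. Gnai1 averaged 0.103 ± 0.0777 FPKM in HF knockout livers and 0.997 ± 0.429 FPKM in LF knockout livers. In floxed livers it averaged 2.32 ± 0.557 FPKM on HF and 0.217 ± 0.0666 FPKM on LF (SD, n = 3 in each group). Its interaction was log2 -6.26 (SE 0.79, edgeR adjusted p = 0.0358). Levels in HF knockout and LF floxed livers were very low, so the size of this difference depends on the method. By limma on log2 FPKM it was -2.27 with a pseudocount of 1 and -5.34 with 0.1, called in both. For both genes the HF knockout values were nearest to those of LF floxed livers, as with Cidea. At an unadjusted p under 0.05 the interaction held 1202 genes, and DESeq2 called 107. Morf4l1b was called by edgeR whichever of the 6 knockout libraries was left out, and Gnai1 was not called without HF knockout replicate 2, LF knockout replicate 2 or LF knockout replicate 3.

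**Figure D5:**
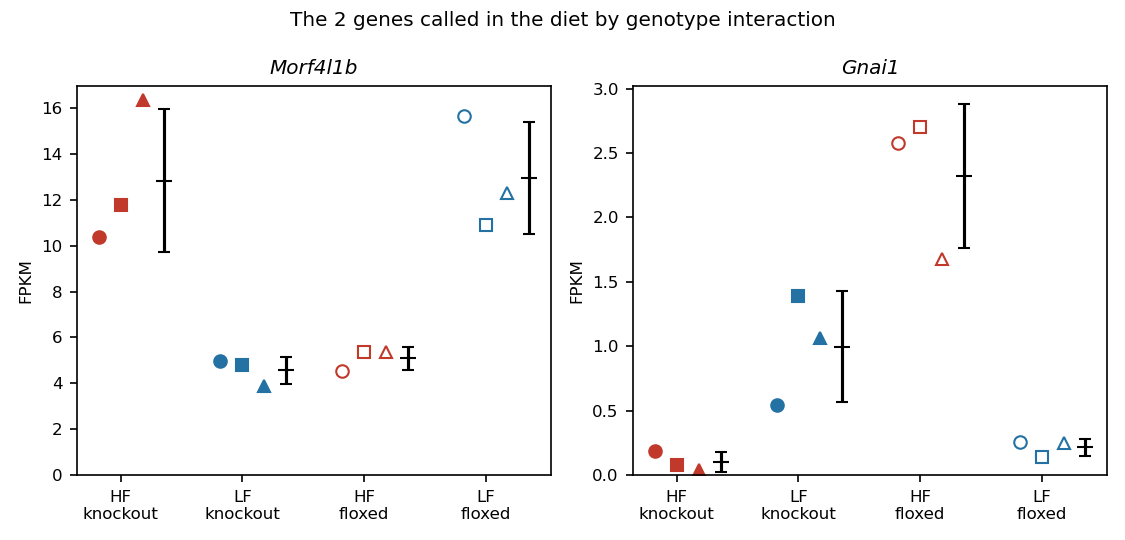
FPKM of Morf4l1b and Gnai1 in all 12 libraries, with symbols for the replicate number, filled for knockout and open for floxed, red for HF and blue for LF; black bars give the mean ± SD of 3 libraries. Morf4l1b is at 10.39 to 16.35 FPKM in HF knockout livers and at 3.90 to 4.98 FPKM in LF knockout livers, and the order of the diets is turned round in floxed livers.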

How the data were processed

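Total RNA of flash-frozen liver was extracted with an RNAeasy kit and sequenced by BGI under its standard protocol, per the labels' protocols. The authors deposited 1 table per library with an estimated (expected) count and an FPKM value for each gene, per the file headers. The genome build was mm9, per the submitters' processing notes; aligner and counter were not given in the sources used here. In each library 87.0% to 88.1% of the deposited estimated counts are whole numbers. Genes under 0.01 FPKM are not listed, and a gene absent from a file was set to 0, which affects 3825 genes in at least 1 file. Loci without a gene number (1229 loci, 6.65% to 17.33% of the counts) entered neither library sizes nor tests, which leaves 13336969 to 15080378 counts per library.

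Rounded counts went into edgeR 4.0.16, run in R 4.3.3 (quasi-likelihood F test, TMM factors, filterByExpr over the 4 groups, all 12 libraries with 1 mean per group, Benjamini-Hochberg over 12587 named genes, false discovery rate of 5%). The standard error is the log2 difference over the square root of F. The same fit gave the floxed contrast and the diet by genotype interaction. Alternatives were edgeR with the size factors of DESeq2, the test of DESeq2 1.42.0 itself, limma 3.58.1 on log2(FPKM + 1) and log2(FPKM + 0.1) or as voom with sample weights, other filters, a fit of the 6 knockout libraries, a replicate block, LF knockout replicates 2 and 3 averaged, unnamed loci kept, and each knockout library left out. The count of genes without overlap on TMM-scaled log2 CPM was added after the data were seen. The fits were also run on simulated counts with the same spread in all groups and no library set apart. That run does not show how the tests behave under the uneven spread seen here.

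Genes were named by rule: Thbs1 and Smpdl3b, the 10 protein-coding genes of smallest p and the 10 of widest gap in each direction, up to 4 members of each of 40 lists of smallest p in the main direction and 2 in the other, and 8 genes at each extreme of each HF knockout library. Genes listed as the members that do not overlap, and Clec4f, Marco, Alb, Trem2, Lgals3, Cyp3a11, Cidea and Cyp2b9, were named after their values were seen. The comparison, its gene lists and the rule were chosen with earlier results of these data known. Some genes are not reported here.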

Additional observations from a re-analysis of the deposited data

Results flagged for a closer look

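The diet differences of 2 genes differed between knockout and floxed livers by the test of the difference itself. The diet effect on Morf4l1b in knockout livers minus that in floxed livers was log2 3.11 (SE 0.3, edgeR adjusted p = 0.00452), and all 3 HF knockout values lay above all 3 LF knockout values while all 3 HF floxed values lay below all 3 LF floxed values. For Gnai1 it was log2 -6.26 (SE 0.79, edgeR adjusted p = 0.0358), with all 3 HF knockout values below and all 3 HF floxed values above those of the matching LF livers. Gnai1 was very low in HF knockout and LF floxed livers, and limma on log2(FPKM + 1) gave a smaller difference of -2.27. For both genes HF knockout and LF floxed values lay on one side, and LF knockout and HF floxed values on the other. Gnai1 was not called with LF knockout replicates 2 and 3 averaged, with the replicate block or with unnamed loci kept, and Morf4l1b was called in each of these. The cause was not tested.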

How the results depend on the processing

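Between HF and LF knockout livers, 0 calls at a false discovery rate of 5% held in edgeR under DESeq2 size factors, other filters, unnamed loci kept, LF knockout replicates 2 and 3 averaged and the 6-library fit, and in limma on log2 FPKM with either pseudocount. DESeq2 called 126 genes and voom with sample weights 9, and with 1 knockout library left out the count was 0 to 10. For the interaction, DESeq2 called 107 genes and voom 34, the averaged and the unnamed-loci fits 1 each, with Gnai1 lost and Morf4l1b called in both, and leaving out 1 library gave 1 to 17, with 17 without HF knockout replicate 3 and 10 without LF knockout replicate 1. Genes without overlap numbered 1966 to 4232 with 1 library left out, which makes overlap rarer by construction, against 1457 with all libraries and 1752 on TMM-scaled log2 CPM, where 51.5% were higher, against 48.3% by FPKM. With replicate number as a block, edgeR called 0 genes between diets and 1 in the interaction, Morf4l1b and not Gnai1. Deviations of same-numbered libraries correlated at 0.162, -0.022 and 0.201. Differently numbered libraries were not compared in this way, so these values do not show whether the numbers pair the samples.

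Of 119 named genes 10 changed sign under some setting. None of the 10 was called between diets in knockout livers under any setting that gave it an adjusted p. DESeq2 gave none for Gpc3, Mup11 and Tspan8, so they could not be called there. With 1 library left out, the log2 difference ranged from -0.24 to 0.58 for Alb, -1.43 to 0.15 for Cd36, -0.88 to 0.06 for Crp, -1.57 to 0.61 for Cyp1a2, -0.22 to 0.69 for Cyp2b9, -2.24 to 4.59 for Cyp2c39, -1.40 to 0.14 for Fgf21, -3.69 to 6.91 for Gpc3, -4.05 to 2.62 for Mup11 and -0.87 to 8.11 for Tspan8. Under voom it was -1.33 for Cyp1a2, -0.21 for Cyp2b9, 0.27 for Fgf21, -1.92 for Gpc3 and -2.72 for Mup11. Under limma with pseudocounts 0.1 and 1 it was -2.84 and -2.17 for Cyp1a2 and -2.49 and -2.31 for Mup11, and with the replicate block -0.51 for Cyp1a2 and -0.52 for Mup11. The cause was not tested. The effect of depth or of the number of libraries on the calls was not tested.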
